A study of Homo sapiens with 6 samples.

Results

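The transcripts described here encode the fibroblast growth factor (FGF) ligands FGF21 and FGF2, the receptors FGFR1, FGFR2, FGFR3, FGFR4 and FGFRL1, and the co-receptor KLB. They were chosen by gene symbol and not by their values. Of 9 symbols listed, 8 had a row among the 16720 named rows of the counts table, and FGF19 was not analysed here. RNA came from Hep3B cells, an established human hepatocellular carcinoma line, in 3 libraries labelled sgControl (genotype WT) and 3 labelled sgRFX6 (genotype RFX6 knockout). RFX6 is a transcription factor of the regulatory factor X family. Both groups were made with lentiCRISPRv2, which carries Cas9 and a guide, followed by puromycin selection. The study's methods state that clones grown from single cells were picked, so a difference between the groups can also be a difference between clones, which cannot be told apart from it. The labels do not say whether the libraries of a group came from separate cultures, and the p-values then measure only the spread between these libraries.

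FGFs signal through receptor tyrosine kinases that dimerise when ligand and heparan sulphate are bound. Most FGFs, such as FGF2, are held by heparan sulphate near the cell that makes them. FGF19 and FGF21 bind it weakly, circulate as hormones and need a Klotho protein beside the receptor. In hepatocytes the pair FGFR4 and KLB receives FGF19 from the gut and lowers bile acid synthesis, while FGF21 is a hormone that the liver releases on fasting and stress. FGFRL1 resembles the receptors outside the cell and lacks their kinase domain.

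The guide named in the headers of the sgRFX6 columns, sg3, defines the comparison and is therefore shown. It lies in exon 3 of RFX6 at chr6:116880567-116880586 (GRCh38, + strand), and the capitals mark the adjacent PAM, the bases that Cas9 needs beside its target.
RFX6 sg3: gtgaaggagtttgcttaccaCGG
RFX6 itself was at 5.64, 5.83 and 7.34 CPM (counts scaled to a common library size) in sgControl and at 3.43, 3.71 and 3.50 CPM in sgRFX6. The log2 fold change, -0.82 with a standard error (SE) of 0.26, had an adjusted p of 0.142 in edgeR's quasi-likelihood test, so the target transcript did not pass. It was lower in every sgRFX6 library than in any sgControl library, as were 11.2% of tested genes. RFX6 passed in 2 of 15 alternatives. These were a GC correction of the libraries (-0.81, edgeR adjusted p = 0.0470) and limma-voom with sample quality weights (-0.96, adjusted p = 0.00274). They called 11.2% and 31.1% of the genes that they tested. In DESeq2 RFX6 did not pass (-0.83, adjusted p = 0.0799).

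The libraries held between 16730374 and 25070770 counts, at which 3 counts correspond to 0.122 to 0.189 CPM. In 12203 tested genes the deviation of a library from its group mean followed transcript GC content, with a Spearman correlation from -0.85 in sgRFX6 library 3 to 0.72 in sgRFX6 library 2. The FGF genes lie at both ends of that scale, with a GC content of 37.5% in the longest FGF2 transcript and 63.6% in that of FGFR4. Of 9 genes fixed as marks of hepatocytes and fetal liver, HNF4A was at 109 to 161 CPM, whereas ALB was at 12.9 to 32.1 CPM and GPC3 and TTR stayed below 2 CPM in every library. The fetal liver protein gene AFP was at 1.58 to 2.31 CPM in sgControl and rose to 9.98 to 17.2 CPM in sgRFX6 (adjusted p = 0.00254, edgeR), and the fibrinogen gene FGB fell from 22.4 to 34.4 CPM to between 3.39 and 6.45 CPM (adjusted p = 0.00417, edgeR). In bulk RNA, fewer cells with a transcript and less of it per cell cannot be told apart. APOB was at 60.6 to 76.4 CPM in sgControl and 15.9 to 46.1 CPM in sgRFX6 (log2 fold change -1.29, adjusted p = 0.116, edgeR). SERPINA1 was at 8.19 to 12.3 CPM over all libraries. The summed level of the 9 liver genes was 257 to 303 CPM in sgControl and 200.5 to 217 CPM in sgRFX6. ALB, AFP, GPC3, TTR and APOA1 (0.695 to 2.45 CPM) are low for Hep3B, a line known for making albumin and alpha-fetoprotein, so the identity of the cells is taken from the labels and was not tested. Of the 3 biliary markers, KRT19 was at 407 to 956 CPM over the 6 libraries, SOX9 at 3.23 to 8.61 CPM, and KRT7 at 5.35 to 15.8 CPM in sgControl and 1.41 to 4.53 CPM in sgRFX6 (log2 fold change -1.70, adjusted p = 0.149, edgeR). The blood markers CD3E and HBB had no more than 3 counts in any library, PTPRC and CD14 stayed below 2 CPM, and CD68 was at 61 to 157 CPM. Of the endothelial markers KDR had at most 1 count, VWF at most 13 counts, and PECAM1 11.4 to 19.3 CPM. Of the 5 fibroblast markers, COL1A1 and COL1A2 fell (log2 fold changes -2.08 and -3.71, adjusted p = 0.0108 and 0.00276, edgeR). By the same test 1.92% of all tested genes were called higher and 1.81% lower. COL1A2 had 2, 2 and 4 reads in sgRFX6, so it passed the filter on low counts through sgControl, the group where it was high. LUM lay on the other side (0.63, adjusted p = 0.530, edgeR), at 16.8 to 24.9 CPM in sgControl and 19.5 to 54.7 CPM in sgRFX6. DCN and PDGFRB were at most at 0.932 and 0.608 CPM. The summed level of the 5, most of it LUM, was 24.5 to 33.1 CPM in sgControl and 21.3 to 56.2 CPM in sgRFX6. The part of these shifts in the results below was not tested.

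Levels were compared between genes as CPM per kilobase of annotated exon. FGFRL1 ranked first in sgControl, at 57.1 CPM per kilobase (lowest 51.7, highest 63.7, n = 3 libraries). FGFR4 followed at 38.0 CPM per kilobase (32.4 to 41.4) and FGFR3 at 24.4 (19 to 34.8). The ranges of FGFR4 and FGFR3 overlapped in sgControl, where sgControl library 2 had more FGFR3 than FGFR4, and did not overlap in sgRFX6, where FGFR4 was at 28.0 CPM per kilobase (20.4 to 34.7) and FGFR3 at 17 (12.0 to 20.2).
FGF2 came next, at 0.768 CPM per kilobase in sgControl and 1.47 in sgRFX6. KLB was at 0.115 and 0.121 CPM per kilobase, so that FGFR4 exceeded its co-receptor 330.4-fold in sgControl and 233-fold in sgRFX6. FGFR1, FGF21 and FGFR2 lay lower still, at 0.0631, 0.0308 and 0.0260 CPM per kilobase in sgControl. The range of FGF21 overlapped those of FGFR1 and FGFR2 in both groups. FGFR1 lay above FGFR2 in every sgControl library, whereas in sgRFX6 library 3 FGFR2 was above FGFR1 (0.042 against 0.0361). By mean CPM per kilobase the order of the 8 genes was the same in both groups. That order depends on the division by exon length, 13.8 kilobases for FGFR1 and 6.08 for KLB. In mean CPM FGFR1 was above KLB, at 0.874 against 0.699 in sgControl and 0.741 against 0.733 in sgRFX6. FGFR2 was likewise above FGF21, at 0.197 against 0.0405 CPM in sgControl and 0.181 against 0.0648 CPM in sgRFX6.

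**Figure D1:**
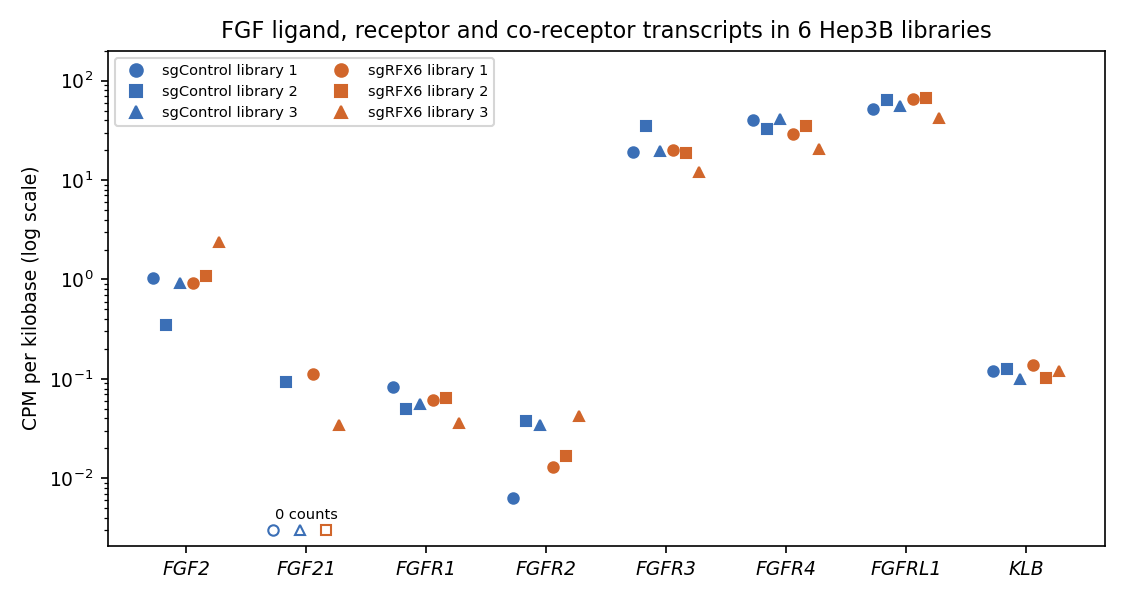
The level of each of the 8 FGF genes in each library is plotted as CPM per kilobase of exon on a log axis, in blue for the 3 sgControl and in orange for the 3 sgRFX6 libraries, with open symbols at the lower edge for libraries with 0 counts. FGFRL1, FGFR4 and FGFR3 lie between 12.0 and 66.6, and KLB, FGFR1, FGFR2 and FGF21 are at most at 0.139 in any library.

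Of the RefSeq promoter windows, those of FGFR4 and KLB are shown because the pair receives FGF19, that of FGFR3 because it was the other kinase receptor with many reads, and that of FGF21 because it is the hormone of the liver. Each window (GRCh38.p14, + strand) holds up to 250 bases before the RefSeq start and ends before the start of the gene in GENCODE. Capitals mark the letters TGATGCAA on either strand, a form of the element bound by C/EBP and ATF4, and GTTGCC on either strand, a half-site of the motif of RFX proteins.
FGFR4 chr5:177086665-177086885: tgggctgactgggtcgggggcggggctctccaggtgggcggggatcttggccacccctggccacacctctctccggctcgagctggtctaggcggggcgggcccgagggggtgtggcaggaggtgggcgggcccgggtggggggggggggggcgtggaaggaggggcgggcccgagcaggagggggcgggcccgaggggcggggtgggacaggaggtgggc
FGFR3 chr4:1793043-1793292: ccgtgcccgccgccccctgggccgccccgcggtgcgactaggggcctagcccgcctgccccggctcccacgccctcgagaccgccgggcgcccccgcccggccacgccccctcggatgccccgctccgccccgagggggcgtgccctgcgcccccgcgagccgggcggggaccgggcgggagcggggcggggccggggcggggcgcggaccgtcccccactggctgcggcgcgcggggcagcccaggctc
KLB chr4:39406680-39406852: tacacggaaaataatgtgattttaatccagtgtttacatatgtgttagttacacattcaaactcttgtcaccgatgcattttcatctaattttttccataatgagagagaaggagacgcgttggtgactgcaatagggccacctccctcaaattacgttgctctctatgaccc
FGF21 chr19:48755274-48755523: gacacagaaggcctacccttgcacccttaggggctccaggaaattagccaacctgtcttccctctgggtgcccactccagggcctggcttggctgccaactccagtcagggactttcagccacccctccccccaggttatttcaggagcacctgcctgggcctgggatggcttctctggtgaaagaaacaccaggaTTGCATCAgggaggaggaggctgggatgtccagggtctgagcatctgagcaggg
The GC content of these windows was 79.2% for FGFR4, 86.8% for FGFR3, 39.3% for KLB and 60.0% for FGF21. Neither motif was found in the windows of FGFR4, FGFR3 and KLB. The FGF21 window held the C/EBP and ATF4 letters once, on the reverse strand, as did 0.772% of all 35116 windows of 250 bases. GTTGCC was present in 10.2% of all windows and, among the windows of FGF genes other than FGFR1, in 1 of the windows of FGFR2. A match is a description of the letters and not a binding site.

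None of the 6 FGF genes that passed the filter on low counts had an adjusted p-value under 0.05 between sgRFX6 and sgControl, against 3.74% of the 12839 tested genes, of which 1.92% were higher and 1.81% lower in sgRFX6. Before adjustment the edgeR p-values of all 6 were also above 0.05, which 15.6% of tested genes were below. DESeq2 called 0 of the 6, against 6.97% of genes to which it gave an adjusted p, and limma-voom with sample quality weights called 1, FGFR4, against 31.1% of tested genes. The groups overlapped for all 6 genes, whereas 23.1% of tested genes had no overlap between the groups. The median log2 fold change of the 6 was -0.11, with 3 positive and 3 negative values, and that of all tested genes was 0.02.

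FGFR4, the receptor that pairs with KLB in hepatocytes (chromosome 5, 177086886 to 177098144), was counted 4018, 3860 and 4636 times in sgControl and 2824, 2667 and 2167 times in sgRFX6. This is 194, 156 and 200.1 CPM in sgControl, and 140.3, 168 and 98.4 CPM in sgRFX6. The groups overlapped, since sgRFX6 library 2 was above sgControl library 2. The means were 183 ± 23.6 CPM and 135 ± 34.8 CPM (SD, n = 3 each). Its log2 fold change was -0.44 (SE 0.22, 95% interval -0.94 to 0.06, edgeR adjusted p = 0.398), so that values from 0.523-fold to 1.04-fold lie within the interval. A two-sided exact permutation test over the libraries gave p = 0.2, and 3 libraries against 3 cannot give less than 0.1. The weighted limma-voom fit put it at -0.44 and called it (adjusted p = 0.0113), while the adjusted p over 15 alternatives lay between 0.0113 and 0.716.

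FGFR3 (chromosome 4, 1793293 to 1808872), a receptor best known for its part in bone growth, was counted 1907, 4160 and 2187 times in sgControl and 1973, 1435 and 1286 times in sgRFX6. Its CPM values were 91.9, 168 and 94.4 in sgControl and 98.0, 90.2 and 58.4 in sgRFX6. One library stood high and another low, sgControl library 2 and sgRFX6 library 3, and the other four lay between 90.2 and 98.0 CPM. The log2 fold change of FGFR3 was -0.53 (SE 0.29, 95% interval -1.18 to 0.13, edgeR adjusted p = 0.445). Without sgControl library 2 it was -0.18 and without sgRFX6 library 3 it was -0.33, and limma-voom with sample quality weights gave -0.03.

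FGFR4 and FGFR3 together held nearly all reads per kilobase of the signalling receptors. The share of FGFR4 among FGFR1 to FGFR4 was 67.8%, 48.2% and 67.9% in sgControl and 58.9%, 65.0% and 62.7% in sgRFX6, and that of FGFR3 was 32.1%, 51.7% and 31.9% in sgControl and 41.0%, 34.8% and 37.1% in sgRFX6. FGFR1 and FGFR2 together were below 1% in every library. The mean share of FGFR4 was 61.3% ± 11.4 in sgControl and 62.2% ± 3.10 in sgRFX6 (SD, n = 3 each), a difference of 0.897 percentage points that lay within the spread (two-sided exact permutation test, p = 1). Without sgControl library 2 the difference was -5.67 percentage points.

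**Figure D2:**
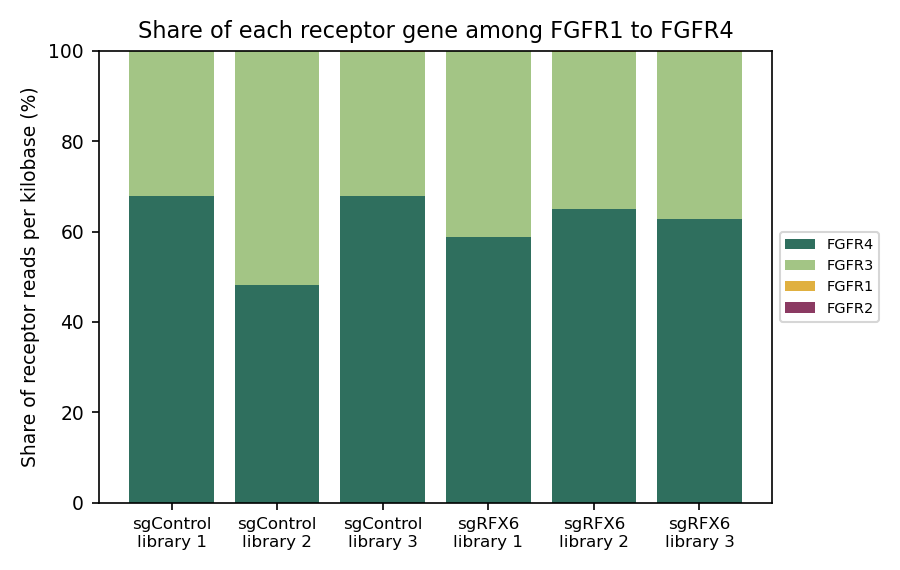
Stacked bars give, for each library, the percentage of the reads per kilobase on FGFR1 to FGFR4 that fell on each of the receptors. FGFR4 takes 58.9% to 67.9% in all libraries except sgControl library 2, where it takes 48.2%, and FGFR1 and FGFR2 are too small to be seen.

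FGFRL1 (chromosome 4, 1009936 to 1026897) was counted 4445, 6518 and 5383 times in sgControl and 5474, 4395 and 3879 times in sgRFX6, which is 214, 264 and 232 CPM against 272, 276 and 176 CPM. Its lowest value and its highest both fell in sgRFX6. The log2 fold change of FGFRL1 was 0.03 (SE 0.21, 95% interval -0.45 to 0.50, edgeR adjusted p = 0.974), and it turned to -0.04, -0.07 and -0.09 without sgControl library 1, sgRFX6 library 1 and sgRFX6 library 2.

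FGFR1 (chromosome 8, 38400215 to 38468834), a receptor common in mesenchymal cells, was counted 24, 17 and 18 times in sgControl and 17, 14 and 11 times in sgRFX6. Its means were 0.874 ± 0.249 CPM and 0.741 ± 0.210 CPM (SD, n = 3 each). At this depth the log2 fold change of -0.24 had a 95% interval from -1.18 to 0.70 (edgeR adjusted p = 0.867), and it was at 0.00 without sgControl library 1. FGFR2 (chromosome 10, 121478334 to 121598458), a receptor of epithelial cells, was counted 1, 7 and 6 times in sgControl and 2, 2 and 7 times in sgRFX6 and did not pass the filter, so that no difference was detectable at this depth.

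KLB (chromosome 4, 39406853 to 39451536), which encodes beta-Klotho, was counted 15, 19 and 14 times in sgControl and 17, 10 and 16 times in sgRFX6. This is 0.723, 0.770 and 0.604 CPM in sgControl, and 0.844, 0.628 and 0.727 CPM in sgRFX6, with each library above the level of 3 counts. The groups overlapped, and the log2 fold change of 0.07 had a 95% interval from -0.76 to 0.91 (edgeR adjusted p = 0.961). It was -0.04 without sgRFX6 library 1. The other Klotho gene, KL, had 1 count in sgControl library 3 and 0 counts in the other libraries.

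FGF21 (chromosome 19, 48755559 to 48758333) was counted 0, 3 and 0 times in sgControl and 3, 0 and 1 times in sgRFX6. Both groups were at or under 3 counts in every library, so no fold change is given, and 0 counts allow a level of up to 0.122 to 0.189 CPM in libraries of these depths. FGF2 (chromosome 4, 122826708 to 122898236), which is released without a classical signal peptide, was the ligand of this pair with measurable reads, at 146, 58 and 144 reads in sgControl and 125, 117 and 359 reads in sgRFX6. Its CPM values were 7.04, 2.35 and 6.22 in sgControl and 6.21, 7.35 and 16.3 in sgRFX6. The highest value was that of sgRFX6 library 3 and the lowest that of sgControl library 2, with the other four between 6.21 and 7.35 CPM. The log2 fold change of FGF2 was 0.94 (SE 0.49, 95% interval -0.17 to 2.05, edgeR adjusted p = 0.414). It was 0.39 without sgRFX6 library 3, 0.59 without sgControl library 2 and 0.13 in the weighted limma-voom fit.

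Beside the values of FGF2 and FGFR3 stand the GC trends of the libraries. Deviations rose with GC content in sgControl library 2 (Spearman correlation across genes 0.41), fell with it in sgRFX6 library 3 (-0.85), and had correlations of -0.57 and 0.05 in sgControl libraries 1 and 3 and of 0.65 and 0.72 in sgRFX6 libraries 1 and 2. For the correction the trend was fitted to deviations from the mean of all libraries, not of the group. A difference between the groups that follows GC content was therefore removed as well. With a smooth GC trend removed from each library, FGF2 was at 5.95, 3.06 and 6.46 CPM in sgControl and 7.32, 9.61 and 10.7 CPM in sgRFX6, and its SD on the log2 scale in sgRFX6 went from 0.74 to 0.28. FGFR3 was then at 100.1, 148 and 92.2 CPM in sgControl and 88.1, 77.5 and 85.2 CPM in sgRFX6. On that scale the groups no longer overlapped for either gene, against 33.4% of the genes with a known GC content. FGF2 was higher in every sgRFX6 library, as were 19.6% of those genes, and FGFR3 was lower, as were 13.8%.
Neither gene passed the test with the correction. The adjusted p-values from edgeR were 0.121 for FGF2, with a log2 fold change of 0.85 (95% interval 0.15 to 1.55), and 0.171 for FGFR3, with -0.44 (95% interval -0.86 to -0.02). FGFR4 had -0.41 (95% interval -0.80 to -0.02, adjusted p = 0.172 from edgeR), and its groups still overlapped. Its corrected values were 212, 137 and 197 CPM in sgControl and 125, 142 and 145 CPM in sgRFX6. The correction widened the sgControl libraries of FGFR4, with an SD on the log2 scale from 0.19 to 0.34. In sgRFX6 that SD went from 0.39 to 0.12. For FGFRL1 the corrected values lay between 228 and 235 CPM in sgControl and between 234 and 259 CPM in sgRFX6, a log2 fold change of 0.08 with a 95% interval from -0.14 to 0.31, or 0.906-fold to 1.24-fold.

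**Figure D3:**
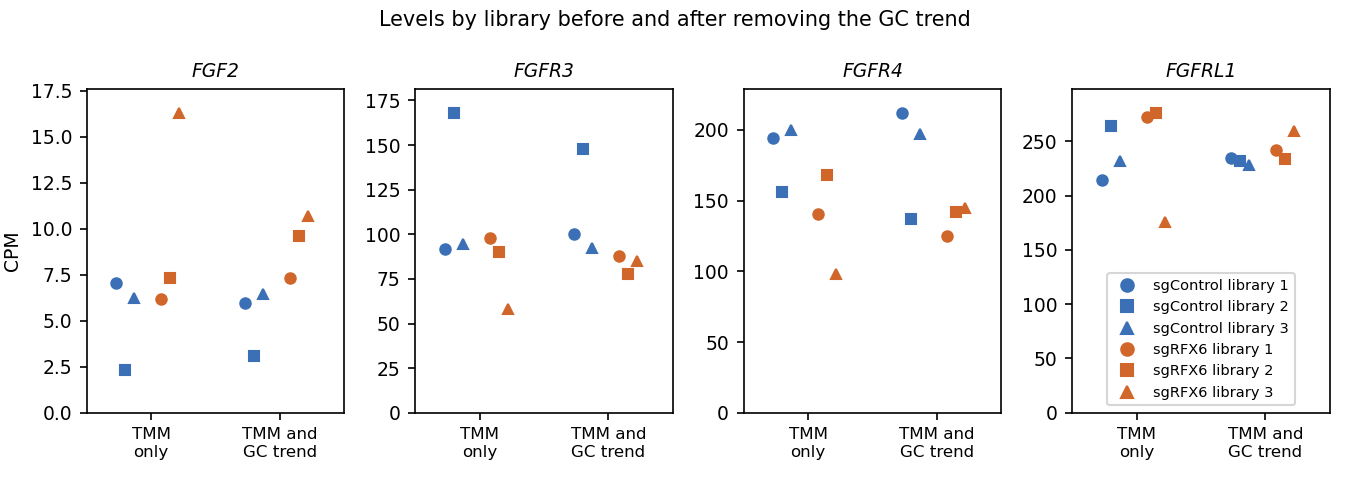
Levels of FGF2, FGFR3, FGFR4 and FGFRL1 in CPM are plotted for each library on linear axes from 0, scaled by TMM alone and with the GC trend of each library also removed, in blue for sgControl and orange for sgRFX6. The 6 FGFRL1 values draw together to between 228 and 259 CPM, and sgRFX6 library 3 moves from 16.3 to 10.7 CPM for FGF2. The sgControl values of FGFR4 spread further, from between 156 and 200.1 CPM to between 137 and 212 CPM.

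The other genes of FGF signalling were taken from lists written from general knowledge. Of 19 other FGF ligands 13 were in the table and 4 were tested, and none was called by edgeR in either direction (median log2 fold change -0.27), while DESeq2 and limma-voom called 1 each. Over all genes edgeR, DESeq2 and limma-voom called 3.74%, 6.97% and 31.1%. FGF13, an intracellular member that binds sodium channels and is named after its values were seen, was at 2.41, 4.86 and 2.29 CPM in sgControl and 0.646, 0.314 and 1.18 CPM in sgRFX6, a log2 fold change of -2.12 (edgeR adjusted p = 0.0643). In 5 of 15 alternatives its adjusted p was under 0.05, among them DESeq2, with 0.00749.

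Among 7 tested co-receptors and binding proteins, 1 rose and 1 fell (median log2 fold change 0.13), against 1.92% higher and 1.81% lower of all tested genes. FGFBP1, a secreted carrier that frees FGFs from heparan sulphate, was at 0.482, 0.446 and 1.17 CPM in sgControl and at 3.53, 4.84 and 3.95 CPM in sgRFX6. It rose by 2.54 on the log2 scale (edgeR adjusted p = 0.0141, SE 0.43), and every sgRFX6 library was above every sgControl library, as for 12.0% of tested genes. FLRT2, a membrane protein that binds FGF receptors and guidance receptors, was at 3.76, 2.35 and 3.19 CPM in sgControl and 0.497, 0.566 and 0.409 CPM in sgRFX6. It was lower in sgRFX6 without overlap, as were 11.2% of tested genes. FLRT2 fell by 2.66 on the log2 scale (edgeR adjusted p = 0.00584, SE 0.37). Both genes were called under all 15 alternatives, with adjusted p-values of at most 0.0477 and 0.0366 from the respective fits. Each passed the filter on low counts through the group where it was high. FGFBP1 had 10, 11 and 27 reads in sgControl, and FLRT2 had 10, 9 and 9 reads in sgRFX6.

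Of 18 tested genes of heparan sulphate proteoglycans and their enzymes, 2 rose and none fell (median log2 fold change -0.01). Of all tested genes 1.92% were called higher and 1.81% lower. SULF2, an extracellular sulphatase that removes 6-O-sulphates from heparan sulphate, was at 14.1, 24.8 and 15.4 CPM in sgControl and 60.1, 57.9 and 46.7 CPM in sgRFX6. The log2 fold change of SULF2 was 1.60 (edgeR adjusted p = 0.0120, SE 0.26), and it was 1.51 without sgControl library 3 and 1.53 without sgRFX6 library 1, where the call was lost (edgeR adjusted p = 0.0679 and 0.0585). HS3ST1, a 3-O-sulphotransferase of the same polymer, was at 8.96, 8.18 and 6.65 CPM in sgControl and 23.5, 17.6 and 22.7 CPM in sgRFX6. It rose by 1.42 (edgeR adjusted p = 0.0132, SE 0.24), and it was 1.34 and 1.35 without these same libraries, where edgeR gave adjusted p = 0.0898 and 0.0711.

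None of the 23 genes from the receptor-proximal adaptors to the MAP kinases was called (median log2 fold change 0.05, range -0.54 to 0.51). DESeq2 called 0 and weighted limma-voom 7 of them, against 6.97% and 31.1% of all genes with these tools, and before adjustment the edgeR p-values of 2 were below 0.05, against 15.6% of all genes. FRS2, the docking protein on FGF receptors, was at 22.2, 14.5 and 17.1 CPM in sgControl and at 12.8, 11.8 and 33.1 CPM in sgRFX6, where library 3 was the highest of all. Its log2 fold change was 0.10 (edgeR adjusted p = 0.950) and -0.07 with the GC correction.

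Of 19 feedback and immediate response genes 1 fell and none rose (median log2 fold change -0.22, with 13 negative and 6 positive values). Over all tested genes 1.81% fell and 1.92% rose by the same test. SPRY4, a Sprouty inhibitor of the RAS pathway that FGF signalling induces, was at 79.7, 54.8 and 51.0 CPM in sgControl and 29.3, 25.0 and 27.4 CPM in sgRFX6. SPRY4 had a log2 fold change of -1.18 (edgeR adjusted p = 0.0217, SE 0.22). It was lower in sgRFX6 with no overlap, as were 11.2% of tested genes. SPRY4 was called in 11 of 15 alternatives but in 2 of the 6 fits with a library left out. Without sgControl library 1, sgControl library 3, sgRFX6 library 1 and sgRFX6 library 2 its adjusted p-values from edgeR were 0.0905, 0.0575, 0.0850 and 0.0753.
DUSP6, a phosphatase of ERK and another feedback gene, lay on the other side, at 94.1, 72.9 and 51.7 CPM in sgControl and 121, 88.6 and 132 CPM in sgRFX6, with a log2 fold change of 0.64 (edgeR adjusted p = 0.246). The ETS factors ETV4 and ETV5 had -0.22 and -0.23 (adjusted p = 0.684 and 0.593 from edgeR). SPRY1 and ETV1, named after their values were seen, did not overlap between the groups, as was so for 23.1% of all tested genes. Their log2 fold changes were -0.59 and 1.01 (adjusted p = 0.176 and 0.156 from edgeR).

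**Figure D4:**
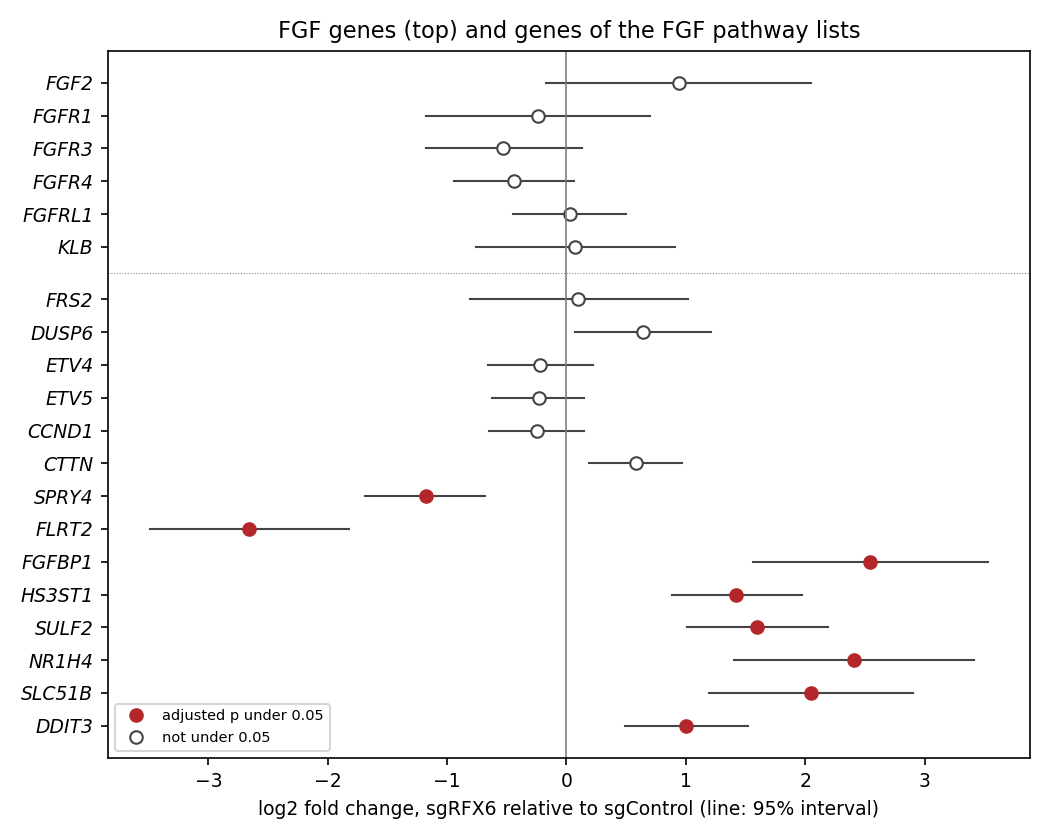
Points give log2 fold changes of sgRFX6 relative to sgControl with 95% intervals from edgeR's quasi-likelihood fit, for the 6 tested FGF genes above the dotted line and for genes of the pathway lists below it, filled red where the adjusted p-value was under 0.05. All 6 FGF genes have intervals that include 0, SPRY4 and FLRT2 lie at -1.18 and -2.66, and FGFBP1 lies at 2.54. The FRS2 value turns negative with the GC correction.

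Of the bile acid genes tied to FGF19, 12 of 15 were in the table and 7 were tested, and CYP7A1, which encodes the rate-limiting enzyme of bile acid synthesis, was not analysed here. Of the 7, 2 rose and none fell (median log2 fold change 1.39), against 1.92% higher and 1.81% lower of all tested genes. The median covers only genes that passed the filter on low counts, which a gene can pass through its higher group alone. With a minimum count of 30, 3 of these genes were tested and 1 was called by edgeR. NR1H4, the bile acid receptor FXR, drew 4, 5 and 3 reads in sgControl and 22, 12 and 22 reads in sgRFX6, a log2 fold change of 2.41 (edgeR adjusted p = 0.0203, SE 0.44). In sgControl it was near the floor of 3 counts. NR1H4 therefore passed the filter on low counts only through sgRFX6, the group where it was high, and its fold change rests on few control reads. SLC51B, a subunit of the bile acid exporter, was at 0.771, 1.58 and 1.34 CPM in sgControl and 6.51, 5.15 and 3.72 CPM in sgRFX6, a log2 fold change of 2.05 (edgeR adjusted p = 0.0203, SE 0.38). With 1 library left out NR1H4 was called in 3 of 6 fits and SLC51B in 2 of 6, where edgeR's adjusted p reached 0.105 and 0.0904. Both lost the call when library 1 of either group or library 3 of sgControl was omitted, and SLC51B also when sgRFX6 library 2 was. NR0B2, the repressor SHP, drew 3, 13 and 2 reads in sgControl and 4 in each sgRFX6 library, and was not tested.

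Among 13 tested regulators and companions of FGF21, 1 rose and none fell (median log2 fold change 0.00), against 1.92% higher and 1.81% lower of all tested genes. DDIT3, the stress factor CHOP, was at 17.7, 14 and 17.9 CPM in sgControl and 35, 37.8 and 26.8 CPM in sgRFX6. It rose by 1.0 on the log2 scale (edgeR adjusted p = 0.0460, SE 0.23) but was called in 1 of the 6 fits with a library left out, that without sgRFX6 library 3, and not without the filter on low counts (edgeR adjusted p = 0.0505). ATF4 and GDF15, named after their values were seen, had log2 fold changes of -0.44 and 1.33 (adjusted p = 0.317 and 0.0840 from edgeR), and GDF15 was called in 5 of 15 alternatives. FGF21 stayed at or under 3 counts beside these values.

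The genes next to FGF19 on the long arm of chromosome 11 were also read, of which 8 were tested and none was called by edgeR (median log2 fold change 0.31, with 7 positive values). Before adjustment 3 had an edgeR p-value below 0.05, while DESeq2 called 3 and weighted limma-voom 4, and over all genes these shares were 15.6%, 6.97% and 31.1%. The cyclin gene CCND1 was at 282, 217 and 237 CPM in sgControl and 229.8, 181 and 209 CPM in sgRFX6, a log2 fold change of -0.25 (edgeR adjusted p = 0.580). CTTN, which encodes the actin-binding protein cortactin, was at 327, 291 and 345 CPM in sgControl and 513, 519.6 and 406 CPM in sgRFX6. It had no overlap, as did 23.1% of all tested genes, and a log2 fold change of 0.58 (edgeR adjusted p = 0.125). FADD and PPFIA1, named after their values were seen, had 0.64 and 0.59 (adjusted p = 0.0949 and 0.0996 from edgeR). The 699 tested genes of chromosome 11 had a median log2 fold change of 0.38. ANO1 drew 5, 7 and 5 reads in sgControl and 8, 14 and 14 reads in sgRFX6 and was not tested, and FGF3 and FGF4 were not analysed here.

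**Figure D5:**
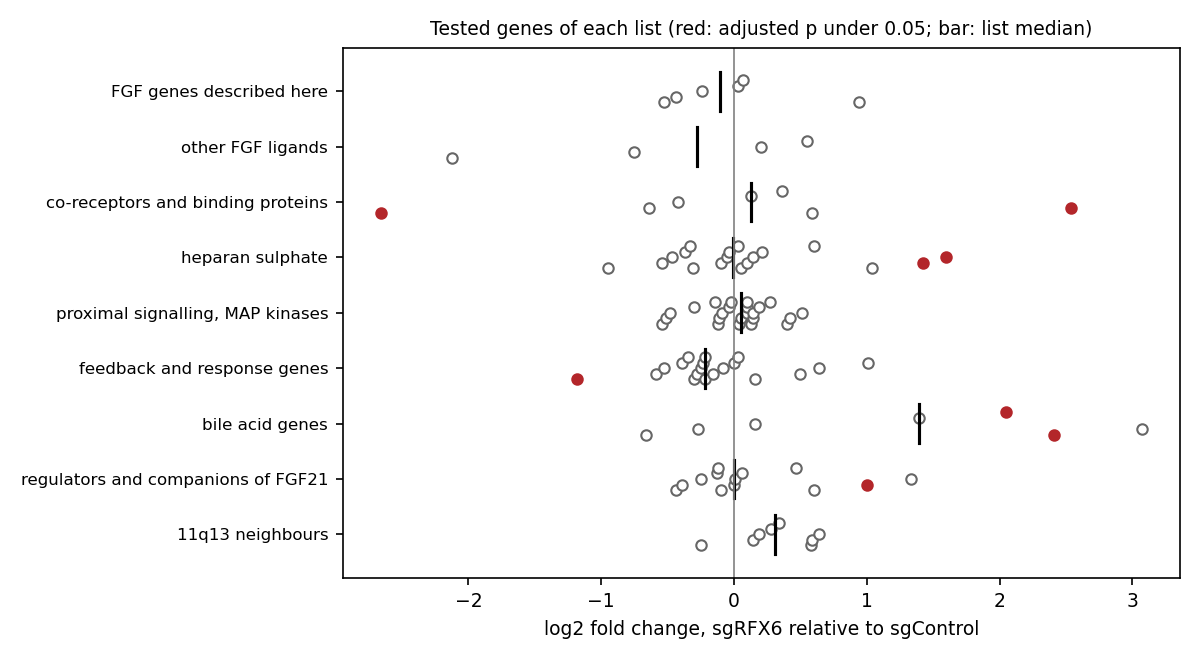
Each point is the log2 fold change of a tested gene, sgRFX6 relative to sgControl, in rows for the FGF genes described here and for each pathway list, filled red where the adjusted p-value was under 0.05, with a bar at the median of the list. Among the pathway lists 8 genes are filled, and the bar of the bile acid genes stands at 1.39 over 7 genes. That bar covers only genes that passed the filter on low counts. Of all tested genes 3.74% were called by the same test.

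The genes whose pattern over the 6 libraries was most like that of FGFR4 were NUP85, SNAPC4 and SOCS7, with Pearson correlations of log2 CPM of 0.994, 0.993 and 0.991. Those most like KLB were VNN2, BCOR and HCN4, at 0.984, 0.983 and 0.958. These describe 6 points drawn from the same libraries, with shared depth and GC trends, and were the highest among the 12839 tested genes.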

How the data were processed

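RNA-seq libraries of sgControl and sgRFX6 Hep3B cells were analysed. The authors deposited one table of raw counts, with a row for each gene or assembled transcript and no normalisation. The submitters' processing notes name the builds GRCh38 and hg38, and the aligner, counter and annotation are not given in the sources used here. Columns named cas were taken as sgControl, the only control group. One row without a gene name (at most 9.17e-05% of a library's counts) was left out.

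Counts were filtered with filterByExpr (minimum count 10, minimum total 15), scaled by TMM and tested with edgeR 4.0.16 in R 4.3.3 by the quasi-likelihood test, with Benjamini-Hochberg adjustment over 12839 genes and a threshold of 0.05. The 95% intervals come from that fit. The test was checked on simulated counts with known changes, drawn with a common dispersion for all genes and no GC trend. That check does not cover the GC trends of these libraries. Counting error is the only error that the floor of 3 counts covers, since amplified reads are not independent molecules.

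GENCODE release 29 (GRCh38) gave positions, exon lengths (union over all transcripts of a gene) and the GC content of the longest transcript. Of 16721 row names 15422 matched by symbol and 257 by another symbol, and GC was known for 95.0% of tested genes. Promoters came from RefSeq, and the windows of 7 FGF genes were searched. FGFR1 was left out of that search, and FGF19 was not analysed here.

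Tried as alternatives were DESeq2 1.42.0, limma-voom (limma 3.58.1) with sample quality weights, scaling by RLE or by library size alone, no filter, a minimum count of 30, the replicate block, GC trends (loess, span 0.3, prior count 2) as offsets, both together, and each library left out. The FGF genes, lists and tests were chosen with earlier results of these data known. Named genes were the FGF genes, all called list genes, a fixed set of pathway genes (DUSP6, SPRY4, ETV4, ETV5, CYP7A1, NR0B2, CCND1, FGF3, FGF4, ANO1, CTTN, KL, FRS2 and RFX6), and the 3 genes nearest in pattern to FGFR4 and KLB (FGF19 and FGF21 were not tested). Markers outside these are named for the check of the cell line.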

Additional observations from a re-analysis of the deposited data

How the results depend on the processing

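Depth limited FGFR1, KLB, FGFR2 and FGF21, which had at most 24 counts in a library. Of the FGF genes 0 were called by edgeR under every edgeR alternative and 1, FGFR4 (-0.44), by limma-voom with sample quality weights. All genes called numbered 480, against 895 with DESeq2, 3998 with limma-voom and sample quality weights and 1363 with the GC correction, and, with 1 library left out, from 212 (sgControl library 3 omitted) to 718 (sgRFX6 library 3 omitted). With 1 library left out the log2 fold changes lay from 0.39 to 1.22 for FGF2, from -0.39 to 0.00 for FGFR1, from -0.68 to -0.18 for FGFR3, from -0.63 to -0.25 for FGFR4, from -0.09 to 0.21 for FGFRL1 and from -0.04 to 0.16 for KLB, and the difference in the share of FGFR4 lay from -5.67 to 4.21 percentage points. FRS2, which lay from -0.54 to 0.35 with 1 library left out, turned negative with limma-voom (-0.47), the replicate block (-0.05), the GC correction (-0.07), both together (-0.09) and without sgControl library 2 (-0.03) or sgRFX6 library 3 (-0.54). The cause of these changes was not tested.

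Libraries with the same replicate number share only a number: their deviations from the group means correlated at -0.406, 0.174 and -0.087, and no library correlated best with its own number. With the replicate block 648 genes were called, and the log2 fold changes were 0.96 for FGF2, -0.25 for FGFR1, -0.50 for FGFR3, -0.46 for FGFR4, 0.00 for FGFRL1 and 0.07 for KLB, none of them called. The block ended the call of DDIT3 (edgeR adjusted p = 0.0523) and brought calls for FGF13 and GDF15 (edgeR adjusted p = 0.0101 and 0.000827), and the bile acid genes called went from 2 to 3 with SLCO1B3. With block and GC correction GDF15, CTTN and FADD were called (edgeR adjusted p = 0.0449, 0.0425 and 0.0490).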
